A study of Mus musculus with 27 samples.

Results

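The classical cadherins and their catenins were followed as 7 genes, Cdh1, Cdh2, Cdh3, Cdh11, Ctnna1, Ctnnb1 and Ctnnd1. They were chosen by name as the cadherin and catenin subunits of the adherens junction. All 7 were listed in both expression tables, which together hold 24892 gene symbols, and all 7 were placed on the mouse genome build mm9. Cdh1 is E-cadherin, Cdh2 is N-cadherin, Cdh3 is P-cadherin and Cdh11 is cadherin 11. Ctnna1, Ctnnb1 and Ctnnd1 encode α-catenin, β-catenin and p120-catenin.

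Classical cadherins are transmembrane proteins that bind like molecules on the neighbouring cell. Their cytoplasmic tails hold p120-catenin, which keeps the cadherin at the surface, and β-catenin, which recruits α-catenin and through it the actin filaments. β-catenin is also the nuclear partner of the TCF factors in Wnt signalling. Mammary epithelium carries E-cadherin at its lateral junctions, and a shift from E-cadherin to N-cadherin is a widely used mark of the epithelial to mesenchymal transition (EMT).

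The RNA came from the line NMuMG, normal epithelial cells of the mouse mammary gland, without treatment or after 8 or 24 h of TGF-β, the growth factor that starts EMT in this line, at 1 to 5 ng/ml per the labels. Parental cells, which carry no shRNA, gave 2 RNA libraries per time point. Cells with a control shRNA (control) and cells with an shRNA against lamin B1 (KD) also gave 2 RNA libraries each per time point. Lamin B1 ChIP-seq and ATAC-seq, which maps open chromatin, gave 1 library each per time point, also from NMuMG. The study describes the RNA replicates as biological, and since the labels do not name separate cultures, the p-values measure the spread between these libraries.

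RNA was given as FPKM, fragments scaled to transcript length and to the mapped fragments of the library, so levels of different genes can be compared per length. The parental and shRNA tables were normalized and tested separately. Relative depth, read from the steps of the low values, was 93.3 to 116% of the first library in the parental table and 79.2 to 113% in the shRNA table. Lmnb1, the targeted gene, was at 17.9 to 36.5 FPKM in the 6 control libraries and at 4.37 to 9.27 FPKM in the 6 KD libraries. Its control means were 32.9 FPKM without treatment, 32.4 at 8 h and 18.1 at 24 h. The KD means were 9.14, 7.96 and 5.94 FPKM, so the gap between the cell types was smallest at 24 h. The summed FPKM of 10 luminal epithelial markers was 4314 to 5185 in parental libraries and 5796 to 7016.5 in shRNA libraries, although Epcam, Cldn3, Cldn7 and Esrp1 lay below the limit of testing in the parental table. Adipocyte markers summed to at most 0.0158, leukocyte markers to at most 1.03 and endothelial markers to at most 1.94 FPKM in any library. In such bulk samples, fewer cells that express a gene and less RNA per cell cannot be told apart. Differences between groups are given on the log2(FPKM + 1) scale, which understates the change of genes at low levels. A gene was called when its limma p-value, adjusted by Benjamini-Hochberg over all genes tested, was under 0.05. Krt8 and Krt18 held most of the luminal sum in parental cells, at 2027 and 1748 FPKM without treatment and 2131 and 2088 FPKM at 24 h. Krt19 fell from 993 to 62.3 FPKM. Of the 6 luminal markers tested there, 3 were called higher and 2 lower at 24 h, beside 33.4% and 37.1% of all genes. Cldn4, at 0.120 FPKM without treatment and 5.38 FPKM at 8 h, was among the 6 through treated libraries alone.

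Ctnnb1 was the most abundant of the 7 mRNAs in all 9 RNA groups. In untreated parental cells it had 847 ± 19.6 FPKM (SD, n = 2), followed by Ctnna1 with 172 ± 0.869 FPKM, Ctnnd1 with 126 ± 5.82 FPKM and Cdh1 with 116 ± 3.81 FPKM. Cdh2 followed with 35.1 ± 0.103 FPKM, Cdh11 with 6.37 ± 0.648 FPKM and Cdh3 with 1.03 ± 0.167 FPKM. No neighbours in this order overlapped between their libraries. After 24 h Cdh2 stood above Cdh1 and Ctnnd1 stood above Ctnna1, and again no neighbours overlapped. Untreated control and KD cells had the same order as untreated parental cells, but Ctnnd1 and Cdh1 overlapped in control cells. At 24 h they had the order of parental cells at 24 h, but Ctnnd1 and Ctnna1 overlapped in KD cells. Cdh3 was the lowest of the 7 in every group. It had 0.0833 to 0.650 FPKM in the shRNA table, below the limit of 1 FPKM in 2 libraries, so it was tested in the parental table alone.

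**Figure D1:**
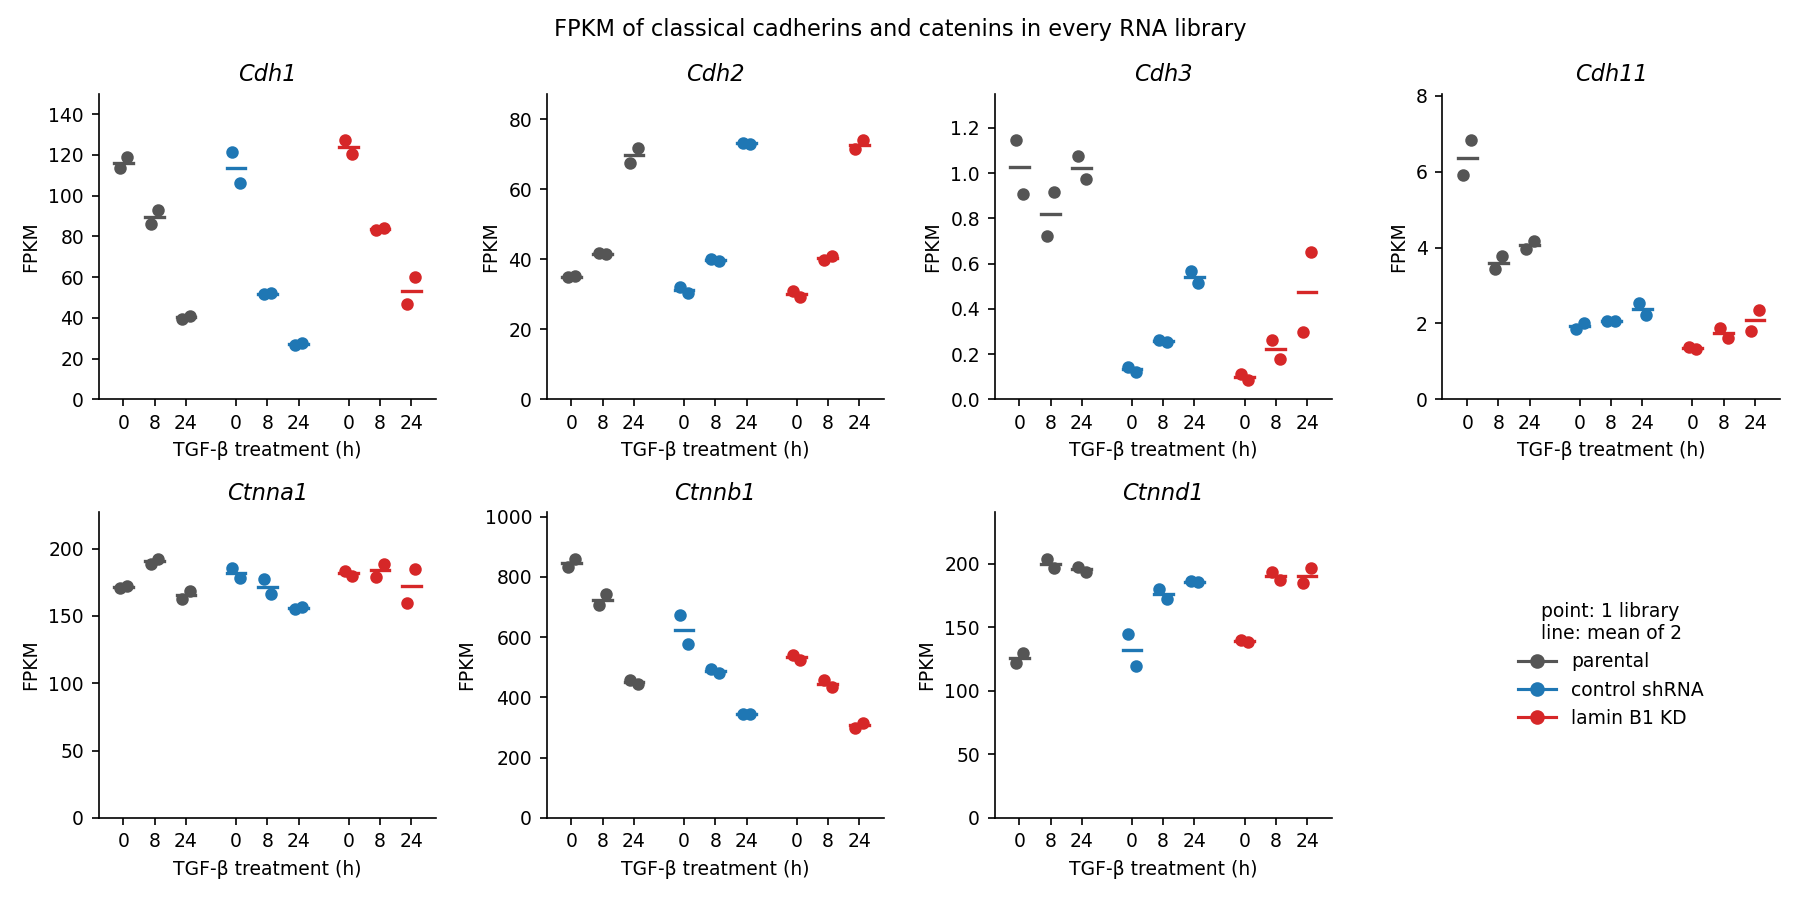
FPKM (linear axes from 0) of the 7 genes in the 18 RNA libraries against hours of TGF-β, with 1 point per library and a line at the mean of 2. Cdh1 and Ctnnb1 step down and Cdh2 steps up in parental, control and KD cells, and Cdh1 is at 26.8 and 27.6 FPKM in control cells at 24 h but at 46.6 and 60.1 FPKM in KD cells.

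In parental cells 6 of the 7 genes passed the test at 8 h, 3 higher and 3 lower, beside 54.5% of the 11309 genes tested (22.4% higher and 32.1% lower). At 24 h 5 passed, 2 higher and 3 lower, beside 70.5% of all genes (33.4% higher and 37.1% lower). Between 8 and 24 h 4 passed, 1 higher and 3 lower, beside 51.8% of all genes (27.7% higher and 24.0% lower). The median difference of the 7 genes was -0.15 at 8 h and -0.05 at 24 h, and that of all genes was -0.05 and -0.02. The 3 comparisons share their libraries pairwise.

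Cdh1, the epithelial cadherin, lies on the plus strand at chr8:109127251-109194146. Its intronic ATAC site with the highest score at 24 h is shown because it was open both before treatment and at 24 h, whereas the gene start had no ATAC peak at any time. The middle 300 bases of that peak, chr8:109164851-109165150 on mm9 (plus strand, 51% G and C), are printed with CAGAC, the short box bound by Smad proteins, in capitals on either strand (GTCTG is its reverse complement).
Cdh1 intron: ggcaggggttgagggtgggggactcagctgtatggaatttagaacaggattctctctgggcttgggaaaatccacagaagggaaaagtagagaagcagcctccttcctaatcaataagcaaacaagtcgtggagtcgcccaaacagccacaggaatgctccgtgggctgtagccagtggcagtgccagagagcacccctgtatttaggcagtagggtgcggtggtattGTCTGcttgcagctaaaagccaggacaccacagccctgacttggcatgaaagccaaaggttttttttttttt
The window held 1 CAGAC box, and it held neither CACCTG, the E-box letters bound by Snail and Zeb proteins, nor TGANTCA, an AP-1 motif. Among the 33811 windows of the same length from the 24 h ATAC peaks, 56.2% held CAGAC, 16.4% held CACCTG and 41.2% held TGANTCA on either strand.

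Cdh1 mRNA fell stepwise in parental cells. The untreated libraries had 113 and 119 FPKM, those at 8 h had 86.3 and 92.9 FPKM, and those at 24 h had 39.4 and 41.1 FPKM. The groups did not overlap, and each time point lay below the one before. On the log2 scale Cdh1 fell by 0.37 at 8 h (SE 0.0501, limma adjusted p = 0.000946) and fell by 1.504 at 24 h (SE 0.0501, limma adjusted p = 9.92e-07), which left 0.347 times the untreated level. From 8 to 24 h it fell by 1.13 (SE 0.0501, limma adjusted p = 9.77e-06).

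Cdh2, the mesenchymal cadherin, lies on the minus strand at chr18:16747386-16967755. The untreated parental libraries had 35.0 and 35.2 FPKM, those at 8 h had 41.8 and 41.5 FPKM, and those at 24 h had 67.6 and 71.8 FPKM. The groups did not overlap, and the step after 8 h was the larger. Cdh2 rose by 0.24 at 8 h (SE 0.0418, limma adjusted p = 0.00283) and by 0.97 at 24 h (SE 0.0418, limma adjusted p = 2.39e-06), to 1.99 times the untreated level. From 8 to 24 h it rose by 0.73 (SE 0.0418, limma adjusted p = 2.42e-05). The summed level of 7 fibroblast markers moved with Cdh2, from 8.85 to 9.79 FPKM in untreated parental cells to 18.1 to 18.8 FPKM at 24 h, with 4 of the 7 at 1 FPKM or more in every untreated library and 5 at 24 h. Their part in the Cdh2 result was not tested.

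The exchange of cadherins can be read from the ratio of Cdh1 to Cdh2 FPKM within a library. In parental cells the ratio was 3.24 and 3.38 without treatment, 2.07 and 2.24 at 8 h, and 0.583 and 0.573 at 24 h, so Cdh2 came to exceed Cdh1 between 8 and 24 h. Cdh1 made up 73.2% ± 0.375 (SD, n = 2) of the summed FPKM of the 4 cadherins before TGF-β, 66.0% ± 1.10 at 8 h and 35.0% ± 0.238 at 24 h. The sum of Cdh1 and Cdh2 went from 151 ± 3.92 FPKM (SD, n = 2) without treatment to 110.0 ± 4.22 FPKM at 24 h. The other cadherins read below are in neither the share nor the sum. Among them Cdh6 went from 64.4 to 155 FPKM, Cdh17 from 57.4 to 10.8 FPKM and Cdh13 from 14.3 to 9.68 FPKM. An exact permutation test of 2 libraries against 2 cannot give a p below 0.333, so the ratios were not tested.

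Cdh3 and Cdh11 were the scarce cadherins. Cdh3, the cadherin of basal epithelial cells, lies at chr8:109034791-109080808 and ends 46442 bp before Cdh1 begins. Its 6 parental libraries had 0.724 to 1.15 FPKM, treated and untreated libraries overlapped, and the log2 difference at 24 h was -0.00058 (95% interval -0.22 to 0.22). In the shRNA table Cdh3 had 0.144 and 0.123 FPKM in untreated control cells, 0.261 and 0.253 at 8 h, and 0.566 and 0.513 at 24 h. Each time point lay above the one before at these low levels, with no test. The 6 basal or myoepithelial markers summed to 1.88 to 4.92 FPKM in untreated shRNA libraries, 24.9 to 30.6 FPKM at 8 h and 3.25 to 5.47 FPKM at 24 h. Most of the 8 h sum was Krt14, at 27.3 FPKM in control cells, whereas Acta2 had 0.0815, 0.160 and 1.89 FPKM in control cells without treatment, at 8 h and at 24 h, and 0.143, 0.818 and 2.85 FPKM in KD cells. Their part in the Cdh3 values was not tested.

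Cdh11, a cadherin of mesenchymal and bone cells, lies on the minus strand at chr8:105156895-105309011. Its parental libraries had 5.91 and 6.83 FPKM without treatment, 3.45 and 3.77 at 8 h, and 3.97 and 4.17 at 24 h. The untreated libraries stood above all treated ones. Cdh11 fell by 0.68 at 8 h (SE 0.0778, limma adjusted p = 0.000457) and by 0.54 at 24 h (SE 0.0778, limma adjusted p = 0.000658). Cdh11 and Cdh2, both cadherins of mesenchymal cells, thus moved in opposite directions in parental cells.

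Ctnnb1 lies on the plus strand at chr9:120838334-120869625 and has 13 annotated transcripts. Its promoter is shown because the lamin B1 peak of 24 h and the ATAC peaks of all 3 time points cover it. The sequence is the first of 2 overlapping RefSeq promoter entries of GRCm38.p6, chr9:120933150-120933449 on the plus strand, and its letters matched mm9 once, at chr9:120842268-120842567. CAGAC is in capitals on either strand.
Ctnnb1 promoter: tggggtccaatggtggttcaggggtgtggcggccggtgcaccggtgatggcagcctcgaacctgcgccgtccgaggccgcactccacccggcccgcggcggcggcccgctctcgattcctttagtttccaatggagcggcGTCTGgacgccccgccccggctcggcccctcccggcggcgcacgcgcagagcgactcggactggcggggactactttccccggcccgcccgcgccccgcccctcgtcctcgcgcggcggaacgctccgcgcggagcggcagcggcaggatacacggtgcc
The entry had 75.3% G and C and 46 CpG sites, and the medians of all 32851 promoter entries were 52.7% and 7 CpG sites. It held 1 CAGAC box and no CACCTG, whereas 49.6% of all entries held the box and 20.2% held CACCTG.

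Ctnnb1 mRNA fell. Its parental libraries had 833 and 860 FPKM without treatment, 706 and 743 at 8 h, and 456 and 445 at 24 h. The groups did not overlap and went down at each step. Ctnnb1 fell by 0.22 at 8 h (SE 0.0449, limma adjusted p = 0.00519) and by 0.91 at 24 h (SE 0.0449, limma adjusted p = 4.00e-06), which left 0.532 times the untreated level.

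Ctnnd1, on the minus strand at chr2:84440228-84490922 with 30 annotated transcripts, has 2 RefSeq promoter entries that differed in their ATAC peaks. The upstream entry, chr2:84658928-84659227 on GRCm38.p6 and chr2:84499085-84499384 on mm9, lay under no peak. The downstream entry, chr2:84650691-84650990 on GRCm38.p6 and chr2:84490848-84491147 on mm9, lay under ATAC peaks in untreated cells and at 24 h. The middle 300 bases of the intronic ATAC peak with the highest score at 24 h, chr2:84459053-84459352 on mm9, are shown because peaks overlapped them only at 8 and 24 h. The promoters are written along the minus strand and the intron along the plus strand, with CAGAC and CACCTG in capitals on either strand.
Ctnnd1 upstream promoter: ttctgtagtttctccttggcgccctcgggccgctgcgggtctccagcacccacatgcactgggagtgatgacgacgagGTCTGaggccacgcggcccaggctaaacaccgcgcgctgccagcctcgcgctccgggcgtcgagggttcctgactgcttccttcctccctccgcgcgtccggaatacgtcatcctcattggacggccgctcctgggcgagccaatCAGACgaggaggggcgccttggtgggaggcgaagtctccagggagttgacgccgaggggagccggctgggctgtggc
Ctnnd1 downstream promoter: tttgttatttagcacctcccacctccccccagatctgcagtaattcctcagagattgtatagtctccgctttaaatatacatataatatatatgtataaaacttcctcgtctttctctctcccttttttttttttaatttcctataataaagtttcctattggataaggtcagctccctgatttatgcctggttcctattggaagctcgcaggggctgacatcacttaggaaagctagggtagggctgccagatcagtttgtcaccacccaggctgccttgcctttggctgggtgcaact
Ctnnd1 intron: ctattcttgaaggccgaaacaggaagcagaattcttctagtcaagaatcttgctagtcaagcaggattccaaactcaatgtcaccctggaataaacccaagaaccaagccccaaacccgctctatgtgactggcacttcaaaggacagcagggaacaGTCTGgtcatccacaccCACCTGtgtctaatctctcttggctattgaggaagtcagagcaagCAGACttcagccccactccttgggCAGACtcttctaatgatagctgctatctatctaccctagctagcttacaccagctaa
The upstream entry had 67.7% G and C, 30 CpG sites and 2 CAGAC boxes. The downstream entry had 42.7% G and C, 3 CpG sites and neither motif. The intronic window held 3 CAGAC boxes and 1 CACCTG, with no TGANTCA.

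Ctnnd1 mRNA rose, and it did so early. Its parental libraries had 122 and 130 FPKM without treatment, 204 and 196 at 8 h, and 197 and 194 at 24 h. All treated libraries stood above the untreated ones, and those of 8 and 24 h overlapped. Ctnnd1 rose by 0.66 at 8 h (SE 0.0447, limma adjusted p = 6.37e-05) and by 0.63 at 24 h (SE 0.0447, limma adjusted p = 1.89e-05). The difference between 24 and 8 h was -0.03 (95% interval -0.14 to 0.07).

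Ctnna1, on the plus strand at chr18:35278542-35414427, changed by less. Its parental libraries had 171 and 172 FPKM without treatment, 189 and 193 at 8 h, and 162 and 168 at 24 h. The 8 h libraries stood above the others, and the 24 h libraries lay just below the untreated ones. Ctnna1 rose by 0.15 at 8 h (SE 0.0367, limma adjusted p = 0.0121), a call that was lost without untreated library a (0.15, limma adjusted p = 0.0506). It fell by 0.21 from 8 to 24 h (SE 0.0367, limma adjusted p = 0.00339), a call that was lost after quantile normalization (-0.09, limma adjusted p = 0.129). At 24 h it differed from untreated cells by -0.05 (95% interval -0.14 to 0.03).

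Since Ctnnd1 rose and Ctnnb1 fell, their ratio moved in 1 direction. It was 0.149 ± 0.00343 (SD, n = 2) in untreated parental cells, 0.276 ± 0.0176 at 8 h and 0.434 ± 0.00165 at 24 h. The summed FPKM of the 3 catenins went from 1144 ± 26.3 (SD, n = 2) without treatment to 811 ± 6.47 at 24 h. Jup, which encodes γ-catenin, is counted below among the partners and is in neither the ratio nor the sum. Chosen after its values were seen, it had 65.5 FPKM without treatment, 128 at 8 h and 89.2 at 24 h in parental cells.

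**Figure D2:**
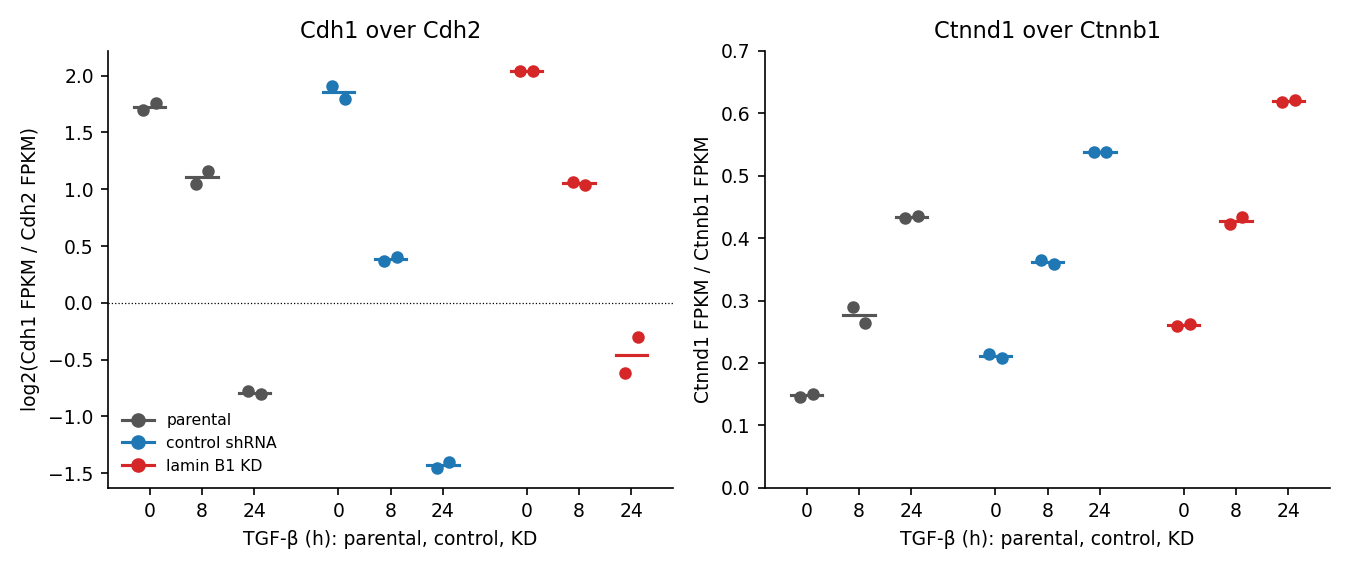
Ratio of Cdh1 to Cdh2 FPKM on a log2 scale (left, where 0 is equal FPKM) and ratio of Ctnnd1 to Ctnnb1 FPKM on a linear scale (right), with 1 point per library and a line at the mean of 2, against hours of TGF-β. The cadherin ratio is below 0 at 24 h in every library, and the catenin ratio climbs at each time point in parental, control and KD cells.

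The response was also read in cells that carry an shRNA, where 6 of the 7 genes could be tested among 11450. In control cells 4 of the 6 passed at 8 h, 2 in each direction, beside 64.3% of all genes (19.4% higher and 44.9% lower), and 5 passed at 24 h, 2 higher and 3 lower, beside 70.7% (25.5% higher and 45.1% lower). In KD cells 4 passed at 8 h, 2 in each direction, beside 67.8% of all genes (23.0% higher and 44.8% lower), and 5 passed at 24 h, 3 higher and 2 lower, beside 71.9% (28.6% higher and 43.3% lower). The median difference of all genes was -0.14 and -0.13 in control cells and -0.13 and -0.10 in KD cells. Quantile normalization moved these medians to -0.02, -0.0035, -0.03 and -0.0037. It also moved the higher and lower calls over all genes in control cells from 2223 and 5137 to 3082 and 3624 at 8 h, and from 2924 and 5169 to 3900 and 3901 at 24 h. In KD cells they went from 2629 and 5132 to 3432 and 4036 at 8 h, and from 3277 and 4959 to 4126 and 4103 at 24 h. The 8 and 24 h comparisons of a cell type share its untreated libraries.

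In control cells Cdh1 had 121 and 106 FPKM without treatment, 51.6 and 52.1 at 8 h, and 26.8 and 27.6 at 24 h. The groups did not overlap. Cdh1 fell by 1.11 at 8 h (SE 0.104, limma adjusted p = 2.32e-05) and by 2.02 at 24 h (SE 0.104, limma adjusted p = 3.16e-07). In KD cells Cdh1 had 127 and 121 FPKM without treatment, 83.1 and 84.1 at 8 h, and 46.6 and 60.1 at 24 h. The groups did not overlap there either. Cdh1 fell in KD cells by 0.56 at 8 h (SE 0.104, limma adjusted p = 0.00126) and by 1.21 at 24 h (SE 0.104, limma adjusted p = 7.63e-06).

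Cdh2 had 32.2 and 30.5 FPKM in untreated control cells, 40.1 and 39.5 at 8 h, and 73.4 and 73.0 at 24 h. In KD cells it had 30.8 and 29.4 FPKM without treatment, 39.7 and 40.9 at 8 h, and 71.6 and 74.1 at 24 h. The time points did not overlap in either cell type, whereas control and KD libraries overlapped at each time point. Cdh2 rose in control cells by 0.33 at 8 h (SE 0.0417, limma adjusted p = 0.000132) and by 1.20 at 24 h (SE 0.0417, limma adjusted p = 3.47e-08). It rose in KD cells by 0.41 at 8 h (SE 0.0417, limma adjusted p = 2.91e-05) and by 1.25 at 24 h (SE 0.0417, limma adjusted p = 2.59e-08). The fibroblast markers summed to 0.275 to 0.444 FPKM in untreated shRNA libraries and to 6.31 to 8.96 FPKM at 24 h, and their part in the Cdh2 result was not tested.

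Cdh11 stood lower in the shRNA table than in parental cells, at 1.32 to 2.55 FPKM, but levels of the 2 tables were set separately. It had 1.86 and 2.002 FPKM in untreated control cells, 2.06 and 2.07 at 8 h, and 2.55 and 2.21 at 24 h. The treated libraries lay just above the untreated ones, with differences of 0.07 at 8 h (95% interval -0.15 to 0.28) and 0.20 at 24 h (95% interval -0.01 to 0.42). The latter was called after quantile normalization (0.31, limma adjusted p = 0.0193). In KD cells Cdh11 had 1.38 and 1.32 FPKM without treatment, 1.88 and 1.62 at 8 h, and 1.81 and 2.37 at 24 h. It rose there by 0.39 at 24 h (SE 0.0935, limma adjusted p = 0.00468), and the difference at 8 h was 0.22 (SE 0.0935, limma adjusted p = 0.0602). That difference was called with a constant of 0.1 (0.35, limma adjusted p = 0.0472), after quantile normalization (0.34, limma adjusted p = 0.0133) and with only the groups compared (0.22, limma adjusted p = 0.0248).

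Ctnnb1 had 672 and 576 FPKM in untreated control cells, 494 and 480 at 8 h, and 346 and 344 at 24 h. In KD cells it had 542 and 524 FPKM without treatment, 459 and 433 at 8 h, and 299 and 315 at 24 h. The time points did not overlap in either cell type. Ctnnb1 fell by 0.35 at 8 h (SE 0.0685, limma adjusted p = 0.00177) and by 0.85 at 24 h (SE 0.0685, limma adjusted p = 5.23e-06) in control cells. It fell by 0.26 at 8 h (SE 0.0685, limma adjusted p = 0.00893) and by 0.79 at 24 h (SE 0.0685, limma adjusted p = 7.65e-06) in KD cells. The KD call at 8 h was lost without untreated KD replicate 1 (-0.23, limma adjusted p = 0.0550) and without 8 h KD replicate 2 (-0.21, limma adjusted p = 0.0615).

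Ctnnd1 had 144 and 120 FPKM in untreated control cells, 180 and 172 at 8 h, and 186 and 185 at 24 h. In KD cells it had 140 and 138 FPKM without treatment, 194 and 187 at 8 h, and 184 and 196 at 24 h. All treated libraries stood above the untreated ones of their cell type. Ctnnd1 rose in control cells by 0.42 at 8 h (SE 0.0759, limma adjusted p = 0.00121) and by 0.50 at 24 h (SE 0.0759, limma adjusted p = 0.000336). It rose in KD cells by 0.45 at 8 h (SE 0.0759, limma adjusted p = 0.000677) and by 0.45 at 24 h (SE 0.0759, limma adjusted p = 0.000597).

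Ctnna1 had 186 and 178 FPKM in untreated control cells, 177 and 166 at 8 h, and 155 and 156 at 24 h. It fell by 0.22 at 24 h (SE 0.0665, limma adjusted p = 0.0141). That call was lost without untreated control replicate 1 (-0.19, limma adjusted p = 0.0709), without 24 h control replicate 1 (-0.22, limma adjusted p = 0.0625) or 2 (-0.23, limma adjusted p = 0.0504), and after quantile normalization (-0.05, limma adjusted p = 0.521). In KD cells Ctnna1 had 183 and 180 FPKM without treatment, 179 and 189 at 8 h, and 160 and 185 at 24 h, so its time points overlapped. The difference at 24 h in KD cells was -0.08 (95% interval -0.23 to 0.07). Without 24 h KD replicate 1 it was 0.03, and without replicate 2 it was -0.18 (limma adjusted p = 0.0137).

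**Figure D3:**
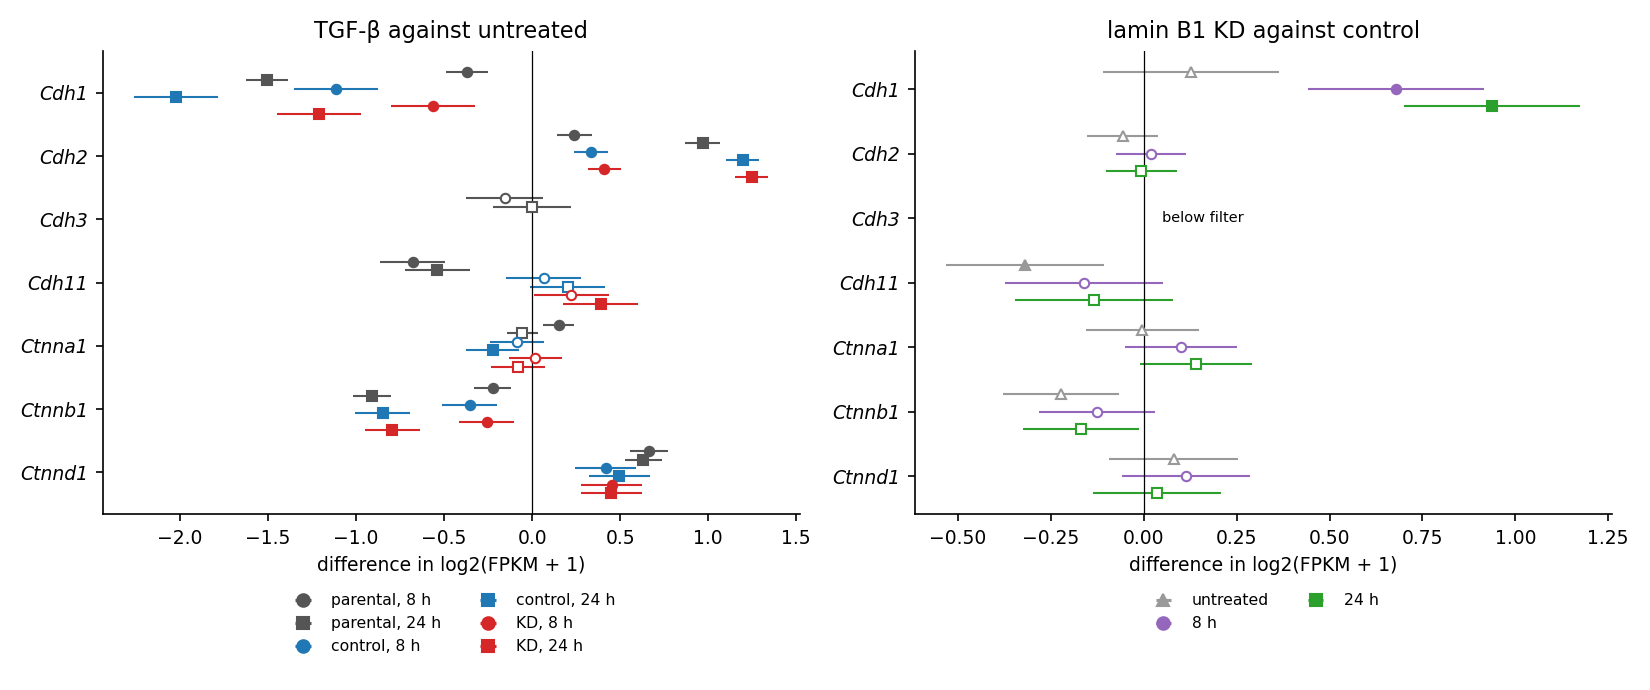
Log2(FPKM + 1) differences of the 7 genes, for TGF-β against untreated cells (left) and for KD against control cells (right). Bars are 95% intervals from limma, and points are filled where the gene was called and open where it was not. Cdh3 has values in the parental comparisons only, and in the comparisons of KD with control cells at 8 and 24 h Cdh1 is the called gene, at 0.68 and 0.94.

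KD and control cells were then compared at each time point, which asks whether less lamin B1 goes with a different level of the junction genes. Of the 6 genes tested, 1 was called in untreated cells, beside 19.7% of all genes (10.6% higher and 9.09% lower), and it was lower in KD cells. At 8 h 1 of 6 was called, beside 35.8% (19.3% higher and 16.5% lower), and at 24 h 1 of 6, beside 28.3% (16.8% higher and 11.5% lower), both higher in KD cells. The gene at 8 and 24 h was Cdh1, and the gene in untreated cells was Cdh11.

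In untreated cells Cdh1 overlapped between KD and control libraries, with a difference of 0.13 (95% interval -0.11 to 0.36). At 8 h both KD libraries stood above both control libraries, at 1.61 times the control mean, and the difference was 0.68 (SE 0.104, limma adjusted p = 0.00173). At 24 h both again stood above, at 1.96 times the control mean, and the difference was 0.94 (SE 0.104, limma adjusted p = 0.000656). Cdh1 was called in all 9 alternative settings at 24 h, with differences of 0.756 to 1.117 and limma adjusted p from 6.32e-05 to 0.0477. The 24 h KD libraries also differed from each other in their summed FPKM of all genes, at 699130 and 910348, and in Lmnb1, at 4.37 and 7.52 FPKM, with the higher Cdh1 in the library that was higher in both. The luminal markers summed to 6136 to 7016.5 FPKM in these libraries and to 5818 to 6060 FPKM in control cells at 24 h. At 8 h the order was the reverse, at 5796 to 6060 FPKM in KD and 6445 to 6722 FPKM in control cells. The summed FPKM of all genes was also lower in KD cells at 8 h, at 754814 and 625801 against 833963 and 799632. The part of these differences in the Cdh1 result was not tested. The basal or myoepithelial markers, of which Krt14 and Acta2 were tested, also moved between KD and control cells. Their sum was 1.88 to 1.95 FPKM in KD and 4.41 to 4.92 FPKM in control cells without treatment, and 5.34 to 5.47 and 3.25 to 3.39 FPKM at 24 h. Krt14 was lower in untreated KD cells (-1.03, limma adjusted p = 0.00124), and Acta2 was higher in KD cells at 8 h (0.65, limma adjusted p = 0.00171). The Acta2 means at 8 h lay below 1 FPKM in both cell types, as given above, and the gene was tested because of its 24 h libraries. At 24 h Krt14 (0.54, limma adjusted p = 0.0156) and Acta2 (0.40, limma adjusted p = 0.0180) were both higher in KD cells. Their part in the Cdh1 result was not tested either.

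Cdh2 showed no such difference. Its KD minus control differences were -0.06 without treatment (95% interval -0.15 to 0.04), 0.02 at 8 h (95% interval -0.08 to 0.11) and -0.01 at 24 h (95% interval -0.10 to 0.09). The ratio of Cdh1 to Cdh2 was 3.76 and 3.48 in untreated control cells, 1.29 and 1.32 at 8 h, and 0.365 and 0.378 at 24 h. In KD cells it was 4.13 and 4.10, then 2.09 and 2.06, then 0.651 and 0.812. The KD libraries stood above the control libraries at each time point, and Cdh2 exceeded Cdh1 at 24 h in both cell types. Cdh1 made up 41.3% ± 3.59 (SD, n = 2) of the summed FPKM of the 4 cadherins in KD cells at 24 h and 26.3% ± 0.533 in control cells.

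Cdh11 was lower in untreated KD cells, by a difference of -0.32 (SE 0.0935, limma adjusted p = 0.0444). The call was lost with no filter (limma adjusted p = 0.113), with only the groups compared (limma adjusted p = 0.0531), with the replicate block (limma adjusted p = 0.0631) and without any 1 of the 4 libraries (limma adjusted p from 0.0703 to 0.184). At 8 and 24 h the Cdh11 differences were -0.16 (95% interval -0.37 to 0.05) and -0.13 (95% interval -0.35 to 0.08).

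The catenins were not called between KD and control cells. Ctnnb1 was lower in both KD libraries at each time point, with differences of -0.22 without treatment (limma adjusted p = 0.0522), -0.13 at 8 h (limma adjusted p = 0.184) and -0.17 at 24 h (limma adjusted p = 0.0972). In untreated cells it was called without control replicate 2 (-0.33, limma adjusted p = 0.00805) and with the replicate block (limma adjusted p = 0.0494). Ctnnd1 differed by 0.08, 0.11 and 0.04, with 95% intervals of -0.09 to 0.25, -0.06 to 0.29 and -0.14 to 0.21, and in untreated cells it was called without control replicate 1 (0.21, limma adjusted p = 0.0198). Ctnna1 differed by -0.0038, 0.10 and 0.14, with 95% intervals of -0.16 to 0.15, -0.05 to 0.25 and -0.01 to 0.29, and at 24 h it was called without KD replicate 1 (0.25, limma adjusted p = 0.00887).

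The difference of responses sets the change in KD cells against that in control cells. At 8 h none of the 6 genes was called by limma, beside 4.06% of all genes (2.45% higher and 1.61% lower). Cdh1 alone among them had an unadjusted p under the threshold there, with a difference of 0.55 (SE 0.148, 95% interval 0.22 to 0.89, limma adjusted p = 0.0779). It was called with only the groups compared (limma adjusted p = 0.0259) and without untreated control replicate 2 (0.65, limma adjusted p = 0.0386). At 24 h 1 of 6 was called, beside 4.72% of all genes (2.73% higher and 1.98% lower), and quantile normalization moved the higher and lower calls over all genes from 313 and 227 to 246 and 267. The gene was Cdh1, whose fall was smaller in KD cells by 0.81 (SE 0.148, 95% interval 0.47 to 1.15, limma adjusted p = 0.0246).

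The response of Krt14 also differed, by 1.00 at 8 h (limma adjusted p = 0.0283) and by 1.57 at 24 h (limma adjusted p = 0.00432), and its part in the Cdh1 result was not tested. The call for Cdh1 at 24 h depended on the libraries. It was lost without untreated control replicate 1 (0.71, limma adjusted p = 0.0545), untreated KD replicate 1 (0.85, limma adjusted p = 0.0816), untreated KD replicate 2 (0.77, limma adjusted p = 0.111), 24 h control replicate 1 (0.79, limma adjusted p = 0.107) and 24 h control replicate 2 (0.83, limma adjusted p = 0.0846). It was also lost with no filter (limma adjusted p = 0.0689) and with only the groups compared (limma adjusted p = 0.114). The difference stayed between 0.63 and 0.99 in all 13 alternatives. Ctnna1 was called at 24 h without KD replicate 1 (0.25, limma adjusted p = 0.0347), against 0.14 with all libraries. The differences of response of the other 4 genes at 24 h were 0.05 for Cdh2 (95% interval -0.08 to 0.18), 0.19 for Cdh11 (95% interval -0.12 to 0.49), 0.05 for Ctnnb1 (95% interval -0.17 to 0.27) and -0.05 for Ctnnd1 (95% interval -0.29 to 0.20).

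Peaks at the 7 loci were read from 1 library per time point, so they have no replicate error, and their depth is unknown because the lists give no reads. The lamin B1 lists hold 4645, 10484 and 7083 peaks and the ATAC lists 9782, 10340 and 33811 peaks, each in the order untreated, 8 h, 24 h. A gene was counted for lamin B1 when a peak overlapped it between 2500 bp upstream of its start and its 3′ end. None of the 7 had a lamin B1 peak in untreated cells, beside 19.9% of 20994 genes. At 8 h 2 of 7 had a peak, beside 38.8%, and at 24 h 3 of 7, beside 29.4%. Within 500 bp of the gene start the counts were 0 beside 15.4%, 2 beside 30.5% and 1 beside 23.8%.

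The 2 genes at 8 h were Cdh3 and Ctnna1. Cdh3 had a peak over its start, chr8:109034278-109035341 with a MACS score of 81.67, and another over an exon near its 3′ end, chr8:109078970-109079848 with a score of 93.81. Ctnna1 had a peak over its start, chr18:35278197-35279167 with a score of 78.47. The median score of the list was 79.42, so these peaks lay near the middle of it. The 3 genes at 24 h were Cdh1, Cdh2 and Ctnnb1. The peak over the start of Cdh1 had a score of 96.86, the one in the first part of Cdh2, chr18:16965140-16965936, lay in an intron 2217 bp from the gene start with a score of 73.57, and the one at Ctnnb1, chr9:120842188-120842831, lay over the start of another transcript with a score of 75.67. The median score of that list was 83.25. No locus had a lamin B1 peak at more than 1 time point, and Cdh11 and Ctnnd1 had none. The share of all genes with a peak at more than 1 time point was not computed, so this is not read as a trait of the members.

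For ATAC a promoter was counted when a peak overlapped the 500 bp on either side of the gene start. Cdh2 and Ctnnd1 were counted in untreated cells, 2 of 7 beside 30.6% of all genes, and Cdh2 alone at 8 h, beside 25.0%. At 24 h Cdh2, Ctnna1 and Ctnnd1 were counted, 3 of 7 beside 47.1%. With the start of any annotated transcript the counts were 3 beside 32.6%, 2 beside 26.8% and 4 beside 50.0%, and over the whole gene region they were 4 beside 37.0%, 4 beside 32.9% and 6 beside 60.0%. The Cdh2 promoter peak had scores of 62.61, 83.35 and 488.84, where the list medians were 93.06, 73.9 and 155.23. The Ctnnd1 peak, over the downstream promoter printed above, had scores of 56.14 in untreated cells and 408.59 at 24 h, and the Ctnna1 peak had 342.19 at 24 h. Scores of lists of unequal length are not on 1 scale, and the 3 promoters stood above the median of their own list at 24 h.

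The ATAC peaks over the Ctnnb1 promoter printed above were centred 4456, 4298 and 4472 bp downstream of the annotated gene start, at the start of another transcript, with scores of 165.62, 62.79 and 168.31. A further Ctnnb1 peak at 24 h, with a score of 56.09, overlapped an exon. Cdh1 had no promoter peak and had 2 intronic ATAC peaks before treatment, 1 at 8 h and 5 at 24 h. The intron window printed above comes from the peak with a score of 242.09 at 24 h, which had 88.88 in untreated cells. Cdh3 had 2 intronic ATAC peaks at 24 h, with scores of 238.79 and 158.01, and none before. Cdh11 had no ATAC peak at any time. Per 100 kb, the 7 genes held 0.832 ATAC peaks before treatment, 0.832 at 8 h and 2.77 at 24 h, and all genes held 0.879, 0.818 and 2.21.

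**Figure D4:**
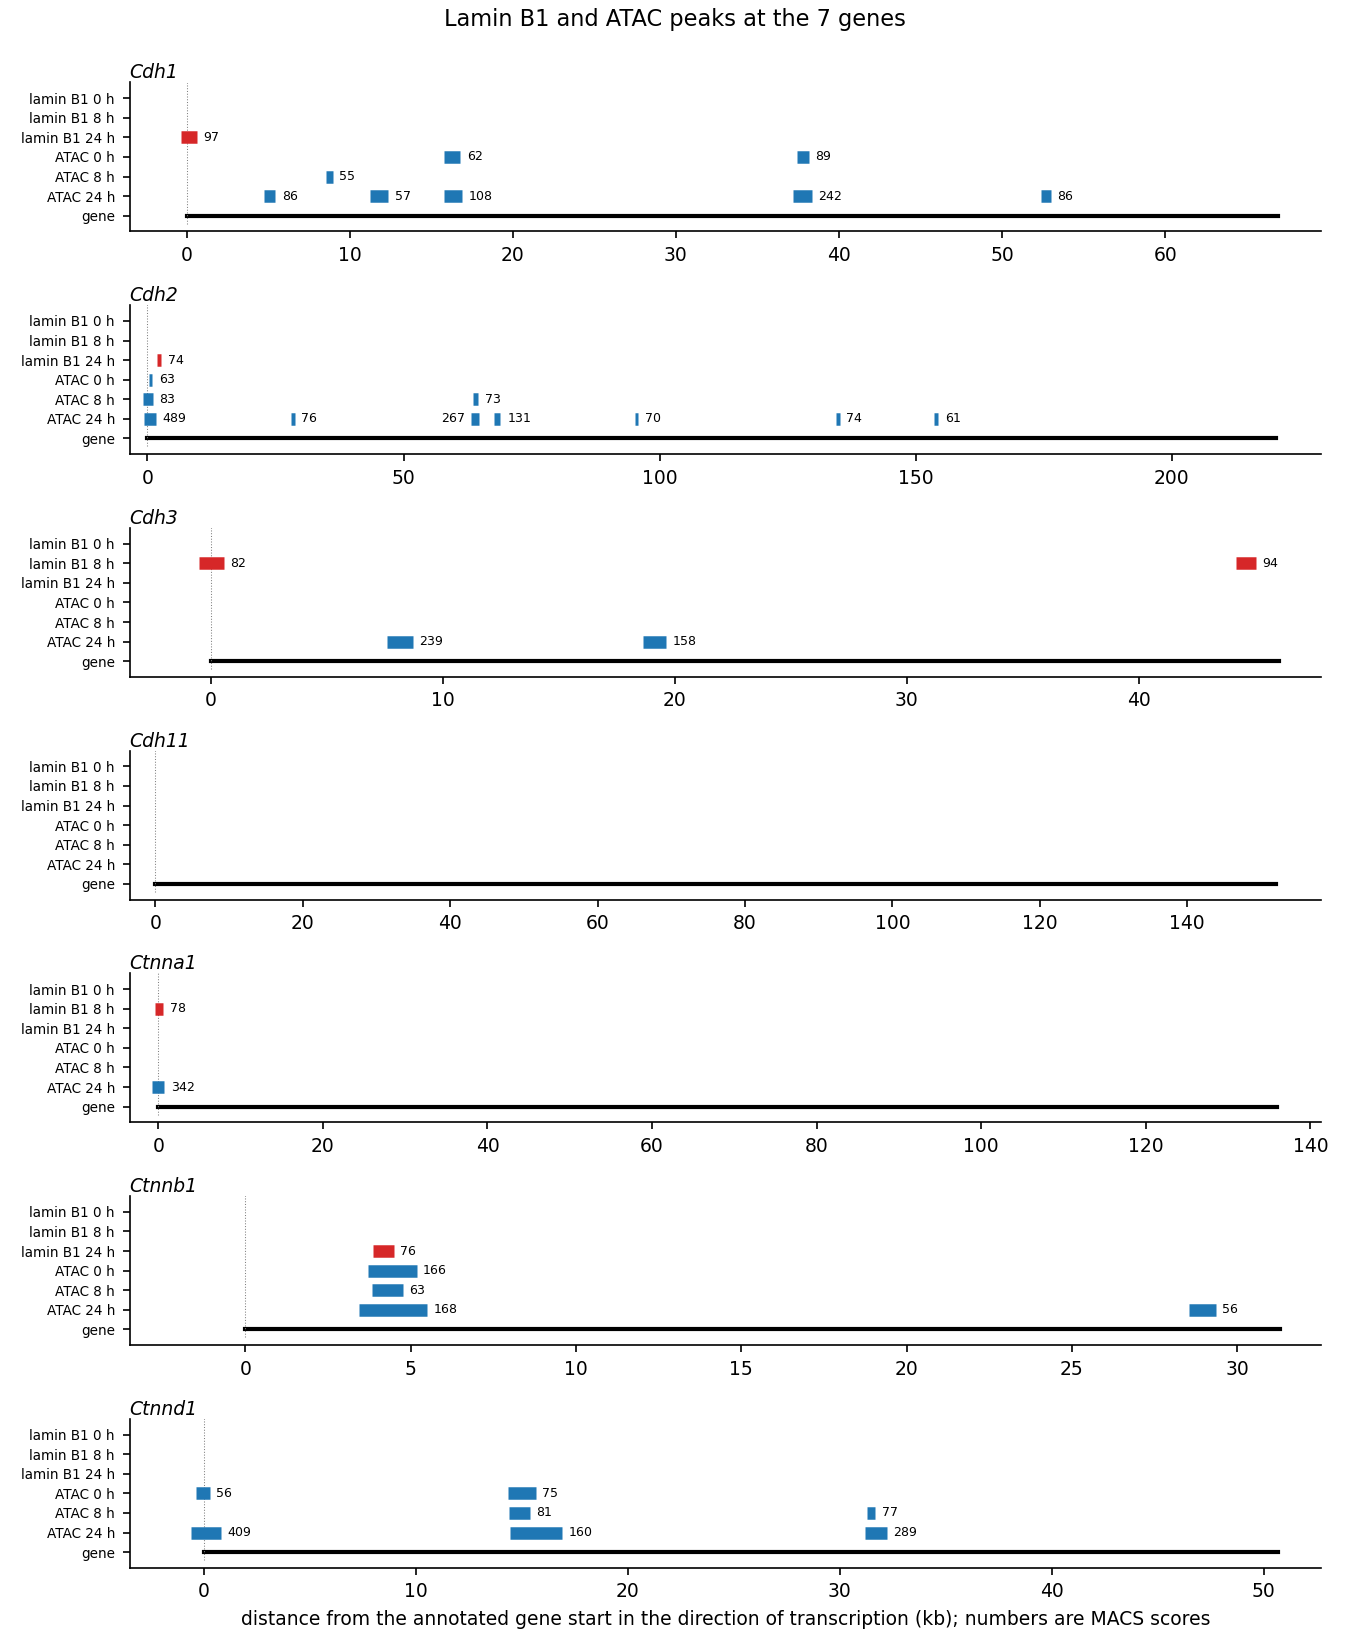
Lamin B1 and ATAC peaks at the 7 genes by distance from the gene start in kb along the gene, at 0, 8 and 24 h, with the MACS score beside each. Lamin B1 peaks appear at Cdh3 and Ctnna1 at 8 h and at Cdh1, Cdh2 and Ctnnb1 at 24 h, and the ATAC peak of the Cdh2 promoter is present at all 3 time points.

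The other cadherins were read as a list of 18 genes, 6 of which were tested in parental cells. At 24 h 2 of the 6 were higher and 3 lower, beside 33.4% and 37.1% of all genes, with a median difference of -0.17 beside -0.02 for all genes. Cdh15, among the 6, had 0.168 FPKM without treatment, 0.166 at 8 h and 2.29 at 24 h. It passed the limit of testing through its 24 h libraries alone, so its place in these counts follows from that rise. Cdh17, the liver-intestine cadherin, fell from 57.4 ± 1.96 to 10.8 ± 0.444 FPKM (SD, n = 2, difference -2.30, limma adjusted p = 4.95e-07), also by 2.94 in control cells and by 2.77 in KD cells. Cdh6, kidney cadherin, rose from 64.4 ± 5.13 to 155 ± 6.23 FPKM (difference 1.26, limma adjusted p = 6.38e-06) and stood above Cdh2 at each time point in parental cells, at 64.4 against 35.1 FPKM without treatment. Cdh13, T-cadherin, which is held by a lipid anchor and has no cytoplasmic tail, fell from 14.3 ± 0.609 to 9.68 ± 0.865 FPKM (difference -0.52, limma adjusted p = 0.00170). The Cdh6 difference at 24 h was smaller in control (0.45) and KD cells (0.63), and that of Cdh13 was larger (-1.78 and -1.85). Of the 18, 5 were tested in shRNA libraries, and at 24 h 1 was higher and 3 lower in control cells, beside 25.5% and 45.1% of all genes, and 2 were higher and 3 lower in KD cells, beside 28.6% and 43.3%.

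The adherens junction partners were a list of 29 genes with 25 tested. In parental cells 14 of the 25 were higher and 7 lower at 24 h, beside 33.4% and 37.1% of all genes, with a median difference of 0.28 beside -0.02 for all genes. Ptprm, among the 25, passed the limit of testing there through its 24 h libraries alone. It had 0.770 FPKM without treatment, 0.834 at 8 h and 1.38 at 24 h. In control cells 12 were higher and 6 lower, beside 25.5% and 45.1%, and in KD cells 14 and 6, beside 28.6% and 43.3%. Lima1, which encodes EPLIN, the actin-binding partner of α-catenin, fell from 53.0 ± 2.41 to 13.9 ± 0.0404 FPKM in parental cells (difference -1.86, limma adjusted p = 1.48e-05). The nectins, which form the second adhesion system of the junction, rose: Nectin1 (listed as Pvrl1) from 1.32 ± 0.0274 to 6.70 ± 0.706 FPKM (difference 1.72, limma adjusted p = 5.40e-06), and Nectin3 (listed as Pvrl3) from 13.6 ± 0.0944 to 38.0 ± 1.41 FPKM (difference 1.42, limma adjusted p = 3.14e-06). Nectin2 was not called, and Nectin4 was below the limit of testing. Ptprf, a receptor phosphatase of the junction, fell from 25.0 ± 1.16 to 9.63 ± 0.430 FPKM (difference -1.29, limma adjusted p = 3.78e-06). Lima1, Nectin1, Nectin3 and Ptprf were called in the same direction at 24 h in control and KD cells.

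**Figure D5:**
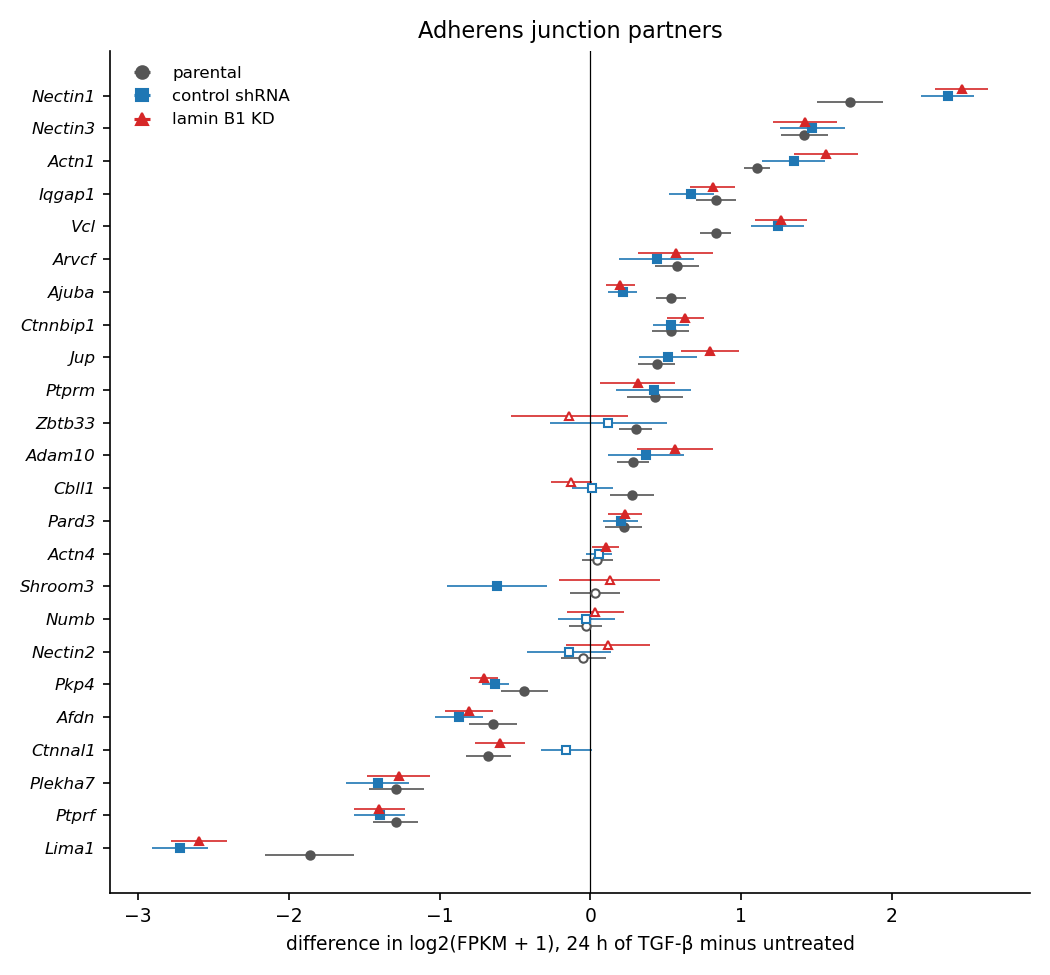
Log2(FPKM + 1) differences of the tested adherens junction partners, without 1 gene that is not reported here, after 24 h of TGF-β, from parental (without shRNA), control and KD cells, with 95% intervals from limma, filled where called. Lima1 lies lowest at -1.86, -2.72 and -2.59 and Nectin1 highest at 1.72, 2.37 and 2.46.

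Between KD and control cells 3 of the 25 partners were higher and 4 lower without treatment, beside 10.6% and 9.09% of all genes. At 8 h 7 were higher and 4 lower, beside 19.3% and 16.5%, and at 24 h 5 and 5, beside 16.8% and 11.5%. Among those called at all 3 time points, which were chosen after their values were seen, vinculin (Vcl), which joins α-catenin to actin under tension, was lower in KD cells. Vcl had 33.4 ± 0.759 FPKM (SD, n = 2) in untreated KD cells and 53.9 ± 1.31 FPKM in control cells, and 81.9 ± 10.0 and 129 ± 0.259 FPKM at 24 h. Its differences were -0.68, -0.65 and -0.65 (limma adjusted p = 0.000873, 0.000498 and 0.000829). Ajuba, a LIM protein that binds α-catenin, was lower by differences of -0.35, -0.38 and -0.36 (limma adjusted p = 0.00120, 0.000372 and 0.000783), and both genes were called in all alternatives. Numb was also lower and Lima1 higher at all 3 time points, but each lost a call in some alternatives, where the limma adjusted p reached 0.163 for Numb and 0.145 for Lima1.

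Genes induced by β-catenin and TCF were a list of 12 with 7 tested. In parental cells 4 of the 7 were higher and 2 lower at 24 h, beside 33.4% and 37.1% of all genes, with a median difference of 0.38 beside -0.02 for all genes, while Ctnnb1 mRNA was lower. Axin2, among the 7, had 0.546 FPKM without treatment, 0.673 at 8 h and 1.13 at 24 h. It passed the limit of testing there through its 24 h libraries alone, so its place in the counts and the median follows from that rise. Tcf7, a TCF factor, rose from 1.93 ± 0.304 to 6.58 ± 0.0422 FPKM (SD, n = 2, difference 1.38, limma adjusted p = 5.58e-05). Ccnd1, cyclin D1, fell from 255 ± 2.31 to 121 ± 5.61 FPKM (difference -1.07, limma adjusted p = 5.01e-06). The Ccnd1 difference at 24 h was -0.38 in control cells, with limma adjusted p up to 0.117 over 9 alternatives, and -0.91 in KD cells. Sox9 rose from 5.75 ± 0.337 to 10.5 ± 0.606 FPKM (difference 0.77, limma adjusted p = 3.22e-05), and it rose in KD cells by 0.56 (limma adjusted p = 0.0227, up to 0.153 over 9 alternatives). In control cells the Sox9 difference was 0.02 (limma adjusted p = 0.936), and without 1 library it was -0.21 to 0.25. The difference of responses between KD and control cells was 0.55 (limma adjusted p = 0.250).

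The genes most like each member were taken as the 3 with the highest Pearson correlation of log2(FPKM + 1) over the 12 shRNA libraries among 8069 genes (8070 for Cdh11), with the correlation over the 6 parental libraries beside it. These libraries share time course and groups, so the values are a description. For Cdh1 they were Mpzl2 (0.987, parental 0.990), Lrrc1 (0.987, parental 0.964) and Rassf6 (0.985, parental 0.948). For Cdh2 they were Adprh (0.991, parental 0.997), Tmsb4x (0.990, parental 0.953) and Pmp22 (0.990, parental 0.997). For Ctnnb1 they were Arhgap19 (0.979, parental 0.988), Eny2 (0.978, parental 0.972) and Pmf1 (0.973, parental 0.992), and for Ctnnd1 they were Stx5a (0.986, parental 0.954), Gmppa (0.981, parental 0.927) and Cxxc5 (0.980, parental 0.983). The likeness of Cdh11 did not carry over, for Ddx54 had 0.949 over the shRNA libraries and -0.92 over the parental ones, while Gys1 had 0.947 and 0.28 and Mlxip had 0.943 and -0.54. For Ctnna1 they were Acadl (0.951, parental 0.849), Foxo6 (0.911, parental 0.07) and Got1 (0.891, parental 0.39).

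Among the members, Cdh2 and Ctnnb1 ran against each other, at -0.94 over the 12 shRNA libraries and -0.997 over the 6 parental ones. Cdh1 and Cdh2 had -0.85 and -0.995, and Cdh1 and Ctnnb1 had 0.76 and 0.998. Cdh11 and Ctnnd1 had 0.49 over the shRNA libraries and -0.95 over the parental ones.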

How the data were processed

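RNA-seq, lamin B1 ChIP-seq and ATAC-seq of NMuMG cells were used, and Hi-C was not analysed here. The authors deposited FPKM values, 1 column per library, in a parental table (6 libraries) and an shRNA table (12 libraries). The tools listed in the submitters' processing notes are Bowtie, TopHat and Cufflinks, with build mm9, and their versions are not given in the sources used here. The tables have no header line, and columns follow the order in the deposited titles. The parental columns carry no replicate number, so those libraries are called a and b. The relative depth was read from the steps of low FPKM values. The authors deposited MACS peaks on mm9 with a score for each, whose lowest value is about 50, and each lamin B1 library pools a pair of ChIPs run side by side.

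The constant 1 was added to FPKM before the log2. A gene was tested when 2 or more libraries of its table reached 1 FPKM, which left 11309 and 11450 genes. limma 3.58.1 (eBayes with a trend, R 4.3.3) was fitted with all libraries of a table together, for 12 contrasts in all. Peaks were placed in Python 3.11.15 (numpy 2.4.6, pandas 2.3.3) on GENCODE M1, with 20994 placed genes, and plots used matplotlib 3.10.9. The tests were tried on simulated data. RefSeq promoter entries of 300 bases (GRCm38.p6) matched Ctnnb1 and Ctnnd1, and Cdh1, Cdh2, Cdh3, Cdh11 and Ctnna1 had none in the table used. Other genes were named from 3 lists when called at 24 h in parental cells with a higher mean of at least 5 FPKM. At most 4 were named per list, by size of change. A gene named beyond this rule is said to be chosen after its values were seen, or is named for a limit of testing. The junction partner list holds 1 gene that is counted in the totals but is not reported here. The members and lists were chosen with earlier results of these data known. The alternatives tried were 0.1 in place of 1, testing every gene, quantile normalization, fitting only the groups compared, a replicate block, leaving out each library, and other rules for peaks and genes.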

Additional observations from a re-analysis of the deposited data

Results flagged for a closer look

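These genes were picked out because the response to TGF-β differed between KD and control cells by the interaction term of limma. At 8 h 1 of 5 other cadherins tested, 0 of 25 partners and 1 of 7 β-catenin and TCF targets were called, beside 4.06% of all genes. At 24 h 1 of 5 and 1 of 25 were called, and of the 7 targets 1 was higher and 1 lower, beside 4.72%. Cdh1 differed by 0.81 at 24 h (limma adjusted p = 0.0246), with the lost calls given above and adjusted p up to 0.114 over 13 alternatives.

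Cdh16, the kidney-specific cadherin, differed by 0.94 at 8 h (limma adjusted p = 0.0126, up to 0.0698 over the alternatives) and by 0.72 at 24 h (limma adjusted p = 0.0231, up to 0.107). It had 2.47 to 2.68 FPKM in KD cells at 8 h and 0.747 to 0.789 FPKM in control cells. Axin2, a feedback inhibitor of Wnt signalling, differed by 0.46 at 8 h (limma adjusted p = 0.0363, up to 0.140) and by 0.50 at 24 h (limma adjusted p = 0.0246, up to 0.123). It had 1.57 to 1.84 FPKM in KD cells at 24 h and 0.661 to 0.770 FPKM in control cells.

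Ctnnal1, a relative of α-catenin, differed by -0.44 at 24 h (limma adjusted p = 0.0499, up to 0.195), with 2.86 to 3.04 FPKM in KD cells and 3.61 to 3.89 FPKM in control cells. Myc differed by -0.54 at 24 h (limma adjusted p = 0.0429, up to 0.171), with 42.3 to 46.2 FPKM in KD cells and 59.2 to 62.0 FPKM in control cells.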

How the results depend on the processing

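With 2 libraries a group the error estimate rests on few libraries, and low genes such as Cdh3 and Cdh11 are close to the limit of testing. Of 702 values of single members under an alternative, 647 kept their direction and side of the threshold, 22 lost a call, 12 gained a call and 21 turned in direction. Every turned member value belonged to a difference that was not called.

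The count of members called in KD against control cells was 0 of 6 without treatment with no filter and 0 with only the groups compared, and 0 to 1 without 1 library. At 24 h it was 1 to 2 without 1 library. For the difference of responses it was 1 at 8 h with only the groups compared and 0 to 1 without 1 library, and at 24 h it was 0 with no filter, 0 with only the groups compared and 0 to 2 without 1 library. The members with a lamin B1 peak were 1 at 8 h above the median score, 1 in lists of equal length, and at 24 h 1 within 500 bp of the start and 1 above the median score. The members with an ATAC peak over the gene region were 4 before treatment, 4 at 8 h and 6 at 24 h, with 0 at the promoter before treatment above the median score and 2 at 8 h at any annotated start. For peaks above the median score and lists of equal length the shares of all genes were not computed. Fewer peaks can only lower a count, so these lower counts are not read as a result about the members.

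Quantile normalization turned Ctnna1 to 0.087 in parental cells at 24 h, Ctnnd1 to 0.060 between 8 and 24 h, Ctnna1 to 0.046 between untreated KD and control cells, Ctnnd1 to -0.043 between them at 24 h, and the 24 h differences of response of Cdh2 to -0.024 and of Ctnnb1 to -0.018. A constant of 0.1 turned Cdh3 to 0.0018 in parental cells at 24 h. Leaving out 1 library gave values on both sides of 0 for differences that were not called with all libraries. These were -0.085 to 0.083 for Cdh3 in parental cells at 24 h, with 0.036 without 24 h library b, and -0.21 to 0.25 for Sox9 in control cells at 24 h, with -0.064 without 24 h replicate 1. In KD cells they were -0.019 to 0.057 at 8 h and -0.18 to 0.025 at 24 h for Ctnna1. Between untreated KD and control cells they were -0.034 to 0.026 for Ctnna1, with 0.0093 without KD replicate 2, and -0.054 to 0.21 for Ctnnd1. Between KD and control cells Cdh2 had -0.0016 to 0.040 at 8 h and -0.031 to 0.018 at 24 h, and Ctnnd1 had -0.0090 to 0.079 at 24 h. The differences of response were -0.014 to 0.21 for Ctnnb1 and -0.10 to 0.17 for Ctnnd1 at 8 h, and -0.057 to 0.17 for Ctnnb1 and -0.18 to 0.089 for Ctnnd1 at 24 h. The cause was not tested.

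No paired analysis was possible in parental cells because the parental columns carry no replicate number. In the shRNA table the correlation of same-numbered deviations over 15 pairs of groups was -0.14 to 0.37. It was over 0.1 in 2 pairs and under -0.1 in 3. The 2 pairs were control with KD cells at 24 h (0.37) and untreated KD cells with KD cells at 24 h (0.18). With 2 libraries a group, these correlations cannot decide whether same-numbered libraries were paired. With the replicate block, of the members' calls Cdh11 lost its call between untreated KD and control cells (-0.32, limma adjusted p = 0.0631) and Ctnnb1 gained one (-0.22, limma adjusted p = 0.0494), and Cdh1 kept the call of its difference of responses at 24 h (0.81, limma adjusted p = 0.0411). The other members' calls did not change with it.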
